A study of Saccharomyces cerevisiae with 56 samples.

Results

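Budding yeast takes up glucose through a family of plasma membrane proteins, the hexose transporters encoded by HXT genes, which differ in their affinity for glucose and in the glucose level at which they are made. SNF3 and RGT2 encode proteins that resemble transporters but act as glucose sensors. Their signal leads to the loss of the corepressors Mth1 and Std1 and so relieves the repression of HXT genes by Rgt1. The levels of 9 such genes, HXT1 to HXT7, SNF3 and RGT2, were followed through 16 time points of the yeast metabolic cycle (YMC) and through amino acid starvation. The genes were chosen by name, and all 9 have a row in every deposited table, out of 7133 rows in those of BY4741 and CEN.PK.

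Of the 9, HXT6 and HXT7 could not be measured. These genes, a nearly identical pair of high-affinity transporters, had no position left after sequence that occurs more than once in the genome had been masked, and were listed with 0 counts in all 56 libraries. The other 7 genes were measured, among 5592 genes that are no dubious ORF and have an unmasked position in all libraries. Outside the reporter strains, unmasked positions made up 43.4% of HXT3, 53.5% of HXT4 and 53.9% of HXT1, but 84.6% of HXT5, 88.1% of HXT2 and 99.7% of both sensor genes. The values of HXT1, HXT3 and HXT4 therefore rest on the part of each gene that differs from its relatives.

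The genes lie on 3 chromosomes of the R64 (sacCer3) genome. HXT4 (YHR092C, chrVIII:287081-288811), HXT1 (YHR094C, chrVIII:290913-292625) and HXT5 (YHR096C, chrVIII:294669-296447) are close neighbours. HXT7 (YDR342C, chrIV:1154216-1155928), HXT6 (YDR343C, chrIV:1159608-1161320) and HXT3 (YDR345C, chrIV:1162957-1164660) form another such group. SNF3 (YDL194W, chrIV:111580-114234) and RGT2 (YDL138W, chrIV:213351-215642) lie elsewhere on the same chromosome, and HXT2 (YMR011W, chrXIII:288079-289704) lies alone.

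Ribosome profiling counts the mRNA fragments that ribosomes protect (footprints), and RNA-seq counts the mRNA of the same lysate. Translation efficiency (TE) is footprint RPKM over mRNA RPKM, where RPKM is the read count scaled to the length of the unmasked coding sequence and to the depth of the library. The study asked how cycloheximide (CHX), an inhibitor of translation elongation added before harvest, changes such measurements. CEN.PK (MATa) was grown in a chemostat and sampled at 16 time points of 1 cycle, all with CHX. BY4741 is a MATa strain with the alleles his3-Δ1 and leu2-Δ0 as well as met15-Δ0 and ura3-Δ0. It was grown in medium with glucose and amino acids (replete) or shifted for 20 min to glucose medium without amino acids (starved). There was 1 pair of samples with CHX and 1 pair without. Replete medium also held uracil and adenine, and the paper's methods call the starvation medium unsupplemented. Starved cells were spun down and put into prewarmed medium, while replete cells stayed in their culture. These steps cannot be told apart from the loss of amino acids. Every other strain derives from BY4741, carries its 4 auxotrophic alleles and gave 1 replete and 1 starved sample with CHX. In yJW1861 and yJW1862 the NOP2 gene is replaced by that of Kluyveromyces lactis and a copy of S. cerevisiae NOP2 is expressed from the CCW12 or the NOP2 promoter, while yJW1863 expresses EGFP from the NOP2 promoter. yJW1864 is labelled dot6::LEU2 tod6::URA3 stb3::kanMX6, a deletion of 3 repressors of ribosome biogenesis genes. The 4 strains with intact repressors (BY4741, yJW1861, yJW1862 and yJW1863) served as replicates of starvation with CHX, so their p-values measure the spread between strains. Every other condition is 1 sample or 1 pair of samples, and the intervals given for it are 95% intervals that cover counting error only.

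Total counts were 14537913 to 23693465 per mRNA library and 10133399 to 27429226 per footprint library in the YMC, and 9648356 to 14773359 and 3632217 to 20036606 in the batch cultures. LEU2, MET17 and URA3 had at most 1, 11 and 1 mRNA counts in BY4741 and the reporter strains, as their genotypes say. In CEN.PK they had at least 6709, 14167 and 720. HIS3 did not separate the strains, with 444 to 4298 mRNA counts in BY4741 and the reporter strains and 781 to 3322 in CEN.PK. Which part of HIS3 these reads cover was not tested. The TE of GCN4 was 0.0223 to 0.0731 in the 6 replete and 0.646 to 1.04 in the 6 starved samples. In the samples labelled yJW1864, DOT6 and TOD6 had at most 9 and 1 mRNA counts, but STB3 had 921 and 1062, or 25.6 to 37.0 RPKM against 28.3 to 59.5 in the other strains grown in batch, and LEU2 had at most 1. The label is thus not met for STB3, and these samples are called "labelled yJW1864". They held 711 and 1052 mRNA counts of URA3, the marker in the label tod6::URA3, which the other batch strains lacked.

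Over the metabolic cycle the measured transporters peaked at different times. HXT5, a transporter made in slowly growing cells, had the most abundant mRNA of the measured transporters through reductive charging and fell to its lowest level in the oxidative phase. HXT6 and HXT7, which were not measured, are outside this ranking. HXT4, a transporter known to be induced by low glucose, was at its highest at the time point where HXT5 was at its lowest. HXT2, another transporter induced by low glucose, stayed high from early reductive charging through the oxidative phase. The sensor SNF3 had a brief trough of mRNA in the oxidative phase. RGT2 changed least in mRNA, but its footprints spanned 8.51-fold and its TE 6.27-fold.

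**Figure D1:**
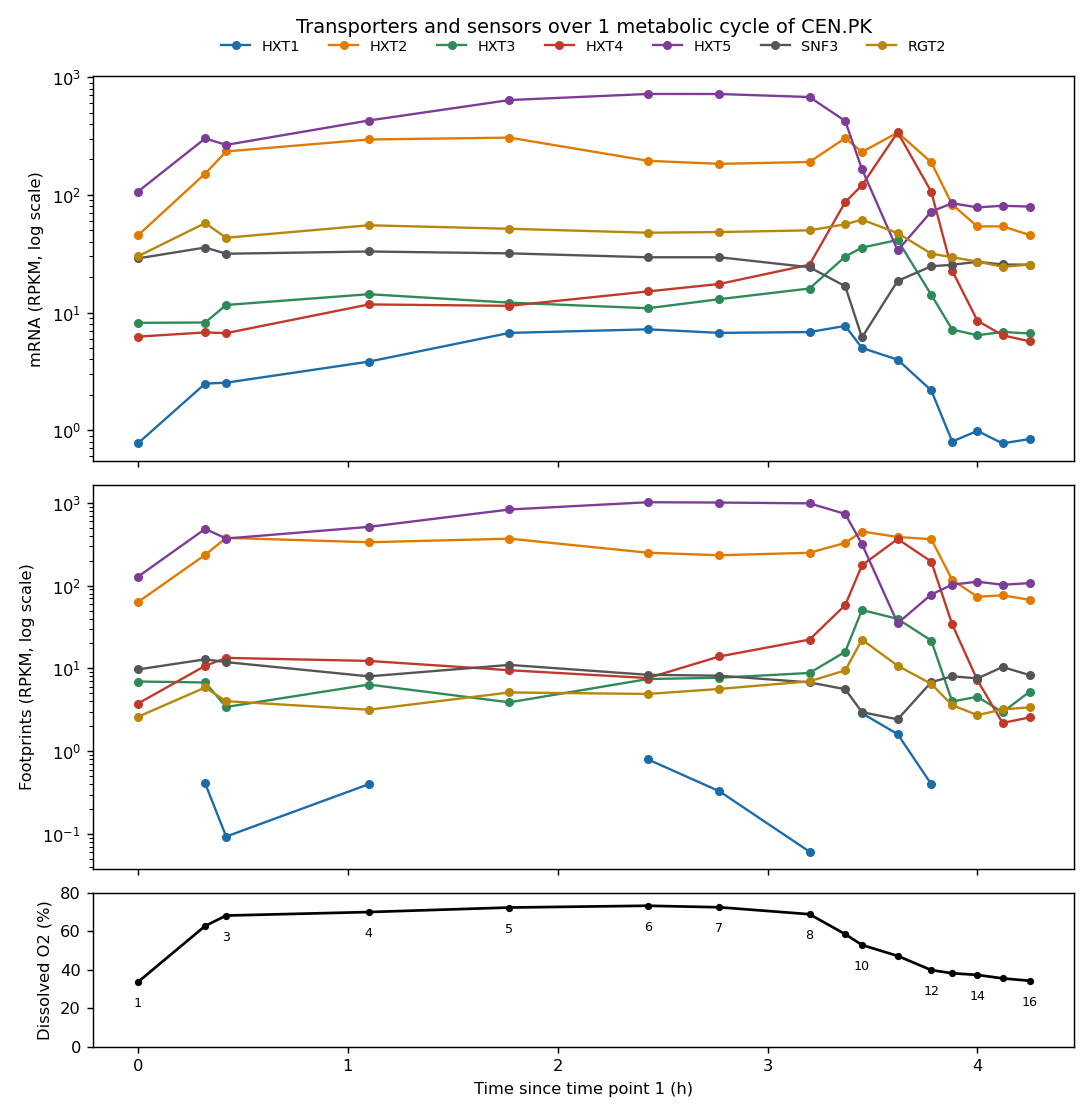
mRNA (top) and footprint (middle) RPKM of the 7 measured genes, on log axes, and dissolved oxygen (bottom) against the time since time point 1 in hours; each point is 1 sample, numbers in the bottom panel are time points, and time points without a footprint of HXT1 are left blank. HXT5 falls from 679 to 33.8 RPKM of mRNA between time points 8 and 11 while HXT4 climbs from 25.5 to 340.0.

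HXT5 mRNA stood at 107 RPKM at time point 1 and then at 302, 266, 429, 640, 721, 720.0 and 679 RPKM through time point 8, the end of reductive charging (RC). It fell to 425, 166 and 33.8 RPKM at time points 9, 10 and 11, the 3 samples of the oxidative phase (OX), and stood at 72.1 to 84.9 RPKM in the 5 samples of reductive building (RB) that followed. The highest level was 21.4-fold the lowest (95% interval 20.3 to 22.5). The fall from time point 8 to 11 took place between 3.20 and 3.62 h after the first sample, while dissolved oxygen went from 68.98% to 47.28%. Footprints of HXT5 followed the mRNA, from 1015 RPKM at time point 6 to 35.1 at time point 11, a 28.9-fold range.

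HXT4 mRNA lay between 6.24 and 25.5 RPKM from time point 1 to 8. It was 86.7, 121 and 340.0 RPKM at time points 9, 10 and 11, then 106, 22.7, 8.53, 6.42 and 5.68 RPKM at time points 12 to 16. The range was 59.8-fold (52.1 to 68.7) and ranked 25th of the 4838 genes that reached the study's minimums of mRNA counts and footprints in every YMC sample. Time point 11 carried much of it, since the second highest level was 19.4-fold the second lowest. Even so, HXT4 was higher in each of time points 9 to 12 than in any other sample. Footprints of HXT4 spanned a wider range, from 2.20 RPKM (40 counts) at time point 15 to 365 RPKM at time point 11, or 166-fold (122 to 227).

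HXT2 mRNA rose from 45.3 RPKM at time point 1 to 307 RPKM at time point 5. It dipped to 184 RPKM at time point 7, reached 339 RPKM at time point 11 and was back at 45.6 RPKM at time point 16. The profile of HXT2 thus had a dip late in reductive charging between higher levels on both sides, with a range of 7.47-fold (7.15 to 7.81).

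HXT3, a low-affinity transporter, was far less abundant in the chemostat, at 6.42 to 16.0 RPKM outside time points 9 to 11. In the oxidative phase it stood at 29.9, 35.7 and 41.4 RPKM. Its mRNA range was 6.45-fold (5.44 to 7.63), and its footprints spanned 17.1-fold (12.7 to 23.2), from 43 counts at time point 15 to 1567 at time point 10.

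HXT1, the low-affinity transporter of cells in abundant glucose, was barely present in CEN.PK. Its mRNA was 0.773 to 7.70 RPKM, or 24 to 249 counts, and highest at time point 9. At 7 of 16 time points HXT1 had 0 footprints, among them time points 5 and 9, where its mRNA had 186 and 249 counts. A count of 0 allows up to 3 counts, or a TE of up to 0.0221 and 0.0183 at these time points. At time points 10 and 11, in contrast, HXT1 had 111 and 53 footprints and a TE of 0.575 and 0.405. Reads of CEN.PK were counted with a mask made for the reference genome, and what sequence differences between strains do to the counts of these related genes was not tested.

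Of the sensors, SNF3 lay between 24.3 and 35.7 RPKM of mRNA in 13 of 16 samples. It fell to 16.8, 6.15 and 18.6 RPKM at time points 9, 10 and 11. The range of 5.81-fold (5.32 to 6.33) came from time point 10, as the second highest level was 1.97-fold the second lowest. Its footprints were lowest at time point 11 (2.43 RPKM, 235 counts) and nearly as low at time point 10 (2.97 RPKM). RGT2 mRNA moved from 24.5 RPKM at time point 15 to 61.6 RPKM at time point 10, or 2.52-fold (2.39 to 2.65), which was below the median range of all 4838 genes, 2.72-fold.

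All 6 genes that met the minimums in every sample thus varied more than 2-fold in mRNA, as did 72.4% of all genes. Of the 6, 5 varied more than 4-fold, against 29.7% of all genes, and HXT4 and HXT5 more than 8-fold, against 11.4%. In footprints all 6 varied more than 4-fold, against 49.2% of all genes (91.4% were past 2-fold), and HXT3, HXT4, HXT5 and RGT2 more than 8-fold, against 25.7%. The oxidative samples are also where other genes had their extremes, with the lowest mRNA of 32.3% of all genes at time point 11 and the highest of 14.1% at time point 10. No time point has a replicate, so these ranges are descriptions of 16 samples.

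The TE of the members fell into separate levels. HXT2 and HXT5 had high TE throughout, 1.08 to 1.94 and 1.04 to 1.92, which placed HXT2 between the percentiles 57.6 and 96.2 of genes in each sample. SNF3 was at 0.131 to 0.482 and RGT2 at 0.0575 to 0.360, with RGT2 never above percentile 5.2. Both sensors were thus covered by few ribosomes for their mRNA at all 16 time points, while the well expressed transporters were not.

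**Figure D2:**
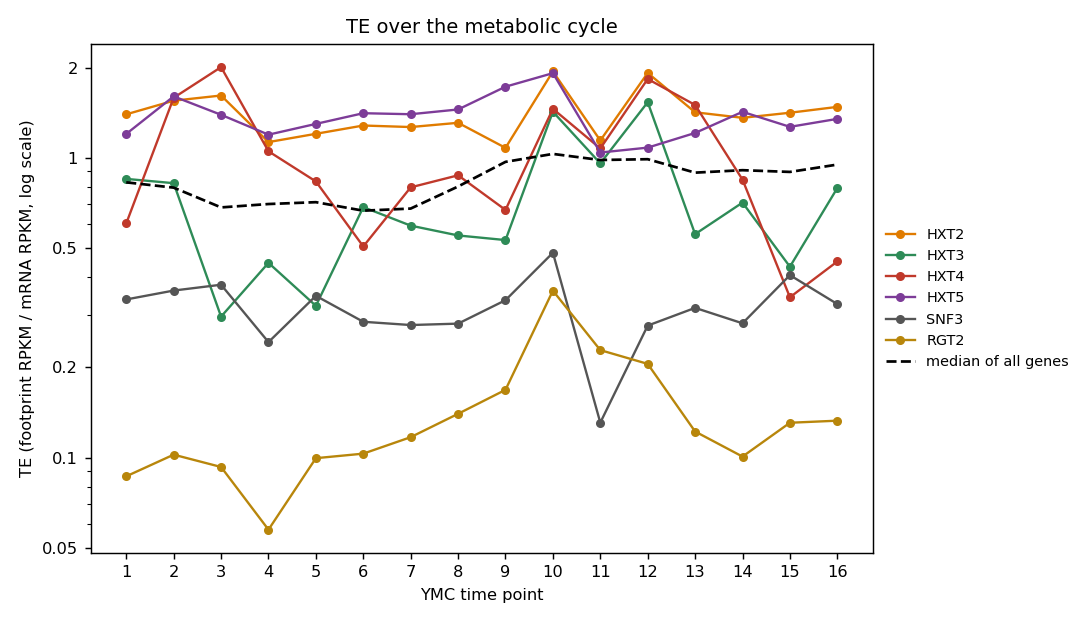
TE (footprint RPKM over mRNA RPKM, log axis) of the 6 genes with footprints in every sample at the 16 YMC time points, each point being 1 sample, with the median of all genes as a dashed line. RGT2 lies lowest at 15 of 16 time points and rises to 0.360 at time point 10, and SNF3 drops to 0.131 at time point 11.

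The TE of RGT2 spanned 6.27-fold (5.45 to 7.20), from 0.0575 at time point 4 to 0.360 at time point 10. Division by the median of each sample left 4.18-fold, and the second highest TE was 2.64-fold the second lowest, so time point 10 carried much of the range. HXT4 spanned 5.86-fold (3.99 to 8.59) and HXT3 5.19-fold (3.92 to 6.87), with 40 and 88 footprints at the low end. Division by the sample median gave 7.65-fold and 3.52-fold, and the second highest TE was 4.06-fold and 4.44-fold the second lowest. SNF3 spanned 3.69-fold (3.05 to 4.47), or 1.67-fold without its highest and lowest sample. HXT2 and HXT5 stayed within 1.80-fold and 1.84-fold. In all, 4 of 6 genes varied more than 2-fold in TE, against 60.1% of all genes, 3 of 6 more than 4-fold, against 12.6%, and 0 of 6 more than 8-fold, against 3.8%. The TE of HXT2, HXT5, SNF3 and RGT2 was highest at time point 10, as was that of 24.6% of all genes, and the median TE of all genes moved between 0.666 and 1.03.

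Pearson correlations of log2 mRNA RPKM over the 16 time points describe which members ran together. HXT3 and HXT4 had the highest value for a transporter pair (r = 0.87), HXT2 and HXT3 had 0.77, and HXT4 and HXT5 had -0.23. RGT2 ran with HXT2 (0.86), and SNF3 ran against HXT3 (-0.67) and HXT4 (-0.66). All points share the same 16 libraries, and neighbouring time points are not independent.

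Among 4884 other genes with enough mRNA counts in each of the 16 samples, the 3 most like each member in this measure were as follows. HXT5 was closest to RTN2 (r = 0.988), FMP40 (0.987) and PEX28 (0.983). HXT4 was closest to GUA1, the GMP synthase (0.944), BOP3 (0.939) and RMT2 (0.914). HXT3 was closest to DBP2, an RNA helicase (0.960), YCR051W (0.941) and BUD20 (0.941), and HXT2 to YCR051W (0.899), YDL129W (0.873) and CDC34, a ubiquitin-conjugating enzyme (0.871). SNF3 was closest to ISF1 (0.981), VHS1 (0.956) and YNL144C (0.946), and RGT2 to ALY2, an arrestin-related adaptor of transporter endocytosis (0.937), RSA1 (0.935) and YOR389W (0.923). YCR051W was thus near both HXT2 and HXT3.

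In batch culture with glucose the order of the members was another. Among the measured genes HXT3 led in replete medium at 296 ± 23.5 RPKM of mRNA (SD, n = 4), followed by HXT1 at 125 ± 9.45, HXT2 at 44.7 ± 16.6 and RGT2 at 21.7 ± 1.89. SNF3 at 5.81 ± 0.879 and HXT4 at 5.67 ± 1.41 did not differ beyond their spread, and HXT5 was lowest at 1.09 ± 0.229. The lowest HXT2 sample, BY4741 at 24.1 RPKM, lay just above the highest RGT2 sample at 23.4, so this neighbouring pair was separated by little. Strain, medium and mode of culture all differ between the YMC and the batch cultures and cannot be told apart.

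Amino acid starvation, with glucose kept in the medium, went with lower mRNA of the 3 most abundant measured transporters. In the 4 strains harvested with CHX, it also went with higher mRNA of both sensors. The mean mRNA level of HXT3 after starvation was 0.267 of the replete level in the 4 strains with intact repressors, that of HXT1 0.446 and that of HXT2 0.477. The level of RGT2 was 2.04 times and that of SNF3 1.51 times the replete level. These are ratios of mean RPKM, from which the median log2 change of all genes (0.19 to 0.23 in these pairs) was not subtracted. HXT4 did not pass a test in mRNA. In bulk samples, fewer cells with a transcript and less of it per cell cannot be told apart.

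**Figure D3:**
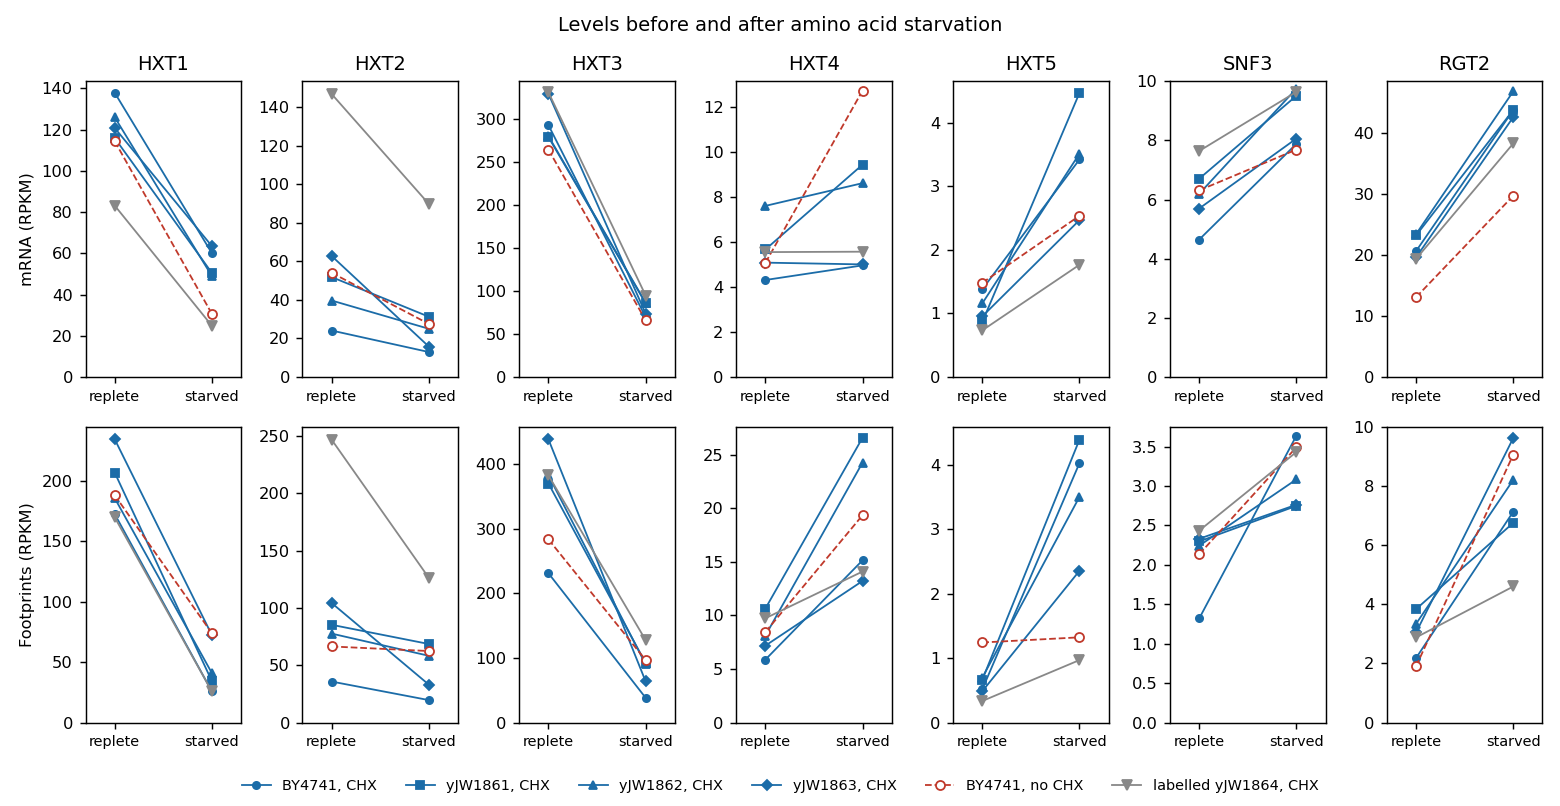
mRNA (top) and footprint (bottom) RPKM of the 7 measured genes in replete and starved samples; lines join the 2 samples of a strain, for the 4 strains with intact repressors with CHX (blue), BY4741 without CHX (red, open) and the strain labelled yJW1864 with CHX (grey). HXT1 and HXT3 fall and RGT2 rises in all 6 pairs, and HXT2 lies far higher in the samples labelled yJW1864 (147 RPKM when replete) than in the others (24.1 to 62.9).

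HXT3 mRNA was 293, 279, 280 and 329.8 RPKM in replete BY4741, yJW1861, yJW1862 and yJW1863, and 69.7, 85.8, 86.5 and 73.7 RPKM in the same strains after starvation. The groups did not overlap. The log2 change in edgeR's quasi-likelihood test was -2.09 (SE 0.09, Benjamini-Hochberg adjusted p = 1.5e-08), lower in 4 of 4 strains.

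HXT1 mRNA was 138, 116, 126 and 121 RPKM in the 4 replete samples, in the same order of strains, and 60.1, 50.5, 49.0 and 63.5 RPKM in the starved ones. Again the groups did not overlap, and the log2 change was -1.35 (SE 0.07, edgeR adjusted p = 7.5e-08).

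HXT2 mRNA was 24.1, 51.9, 39.7 and 62.9 RPKM when replete and 13.0, 31.3, 25.0 and 15.8 RPKM when starved. These groups overlapped, as the strains differed by a coefficient of variation of 37.3% against 7.55% for HXT1 and 7.96% for HXT3, but HXT2 was lower after starvation within each strain. The log2 change was -1.26 (SE 0.19, edgeR adjusted p = 0.00019). In yJW1863 the log2 ratio of RPKM, less the median of all genes (0.19 to 0.28 over the pairs), was -2.23, against -0.86 to -1.08 in the other 3 strains.

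RGT2, the sensor of high glucose, had 20.6, 23.2, 23.4 and 19.6 RPKM of mRNA when replete and 43.7, 43.7, 46.8 and 42.5 RPKM when starved. The groups stood well apart, with a log2 change of 0.85 (SE 0.05, edgeR adjusted p = 3.7e-07). SNF3, the sensor of low glucose, had 4.65, 6.71, 6.2 and 5.70 RPKM when replete and 7.89, 9.51, 9.76 and 8.07 RPKM when starved. Its rise was smaller, 0.42 on the log2 scale (SE 0.08, edgeR adjusted p = 0.00087), and present in 4 of 4 strains.

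All 5 members with enough mRNA counts to be tested were thus called in mRNA, 3 lower and 2 higher. Among all 5061 genes tested, 80.2% were called, 38.1% lower and 42.1% higher, so a call in mRNA is what most genes had. The median log2 change of all genes was 0.03.

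HXT5 and HXT4 were below that minimum. HXT5 had 1.38, 0.866, 1.16 and 0.953 RPKM (20 to 38 counts) when replete and 3.42, 4.47, 3.52 and 2.47 RPKM when starved, without overlap. In the alternative with no filter on counts, its log2 change in mRNA was 1.43 (SE 0.19, edgeR adjusted p = 7.4e-05), where 76.9% of 5565 genes were called. HXT4 had 4.32, 5.67, 7.62 and 5.09 RPKM when replete and 4.97, 9.45, 8.63 and 5.01 RPKM when starved, and the groups overlapped (log2 change 0.07, edgeR adjusted p = 0.65).

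The sum of the 5 measured transporters was 472 ± 31.6 RPKM of mRNA in the replete and 166 ± 13.3 RPKM in the starved samples (SD, n = 4). HXT3 made up 61.6% to 63.6% of that sum when replete and 45.9% to 50.1% when starved. HXT1 made up 23.3% to 29.9% and then 27.8% to 39.7%. HXT4 and HXT5 together stayed a small part of the sum in each batch sample, whereas in the YMC HXT5 alone made up to 76.5% and, at time point 11, only 4.5%.

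**Figure D4:**
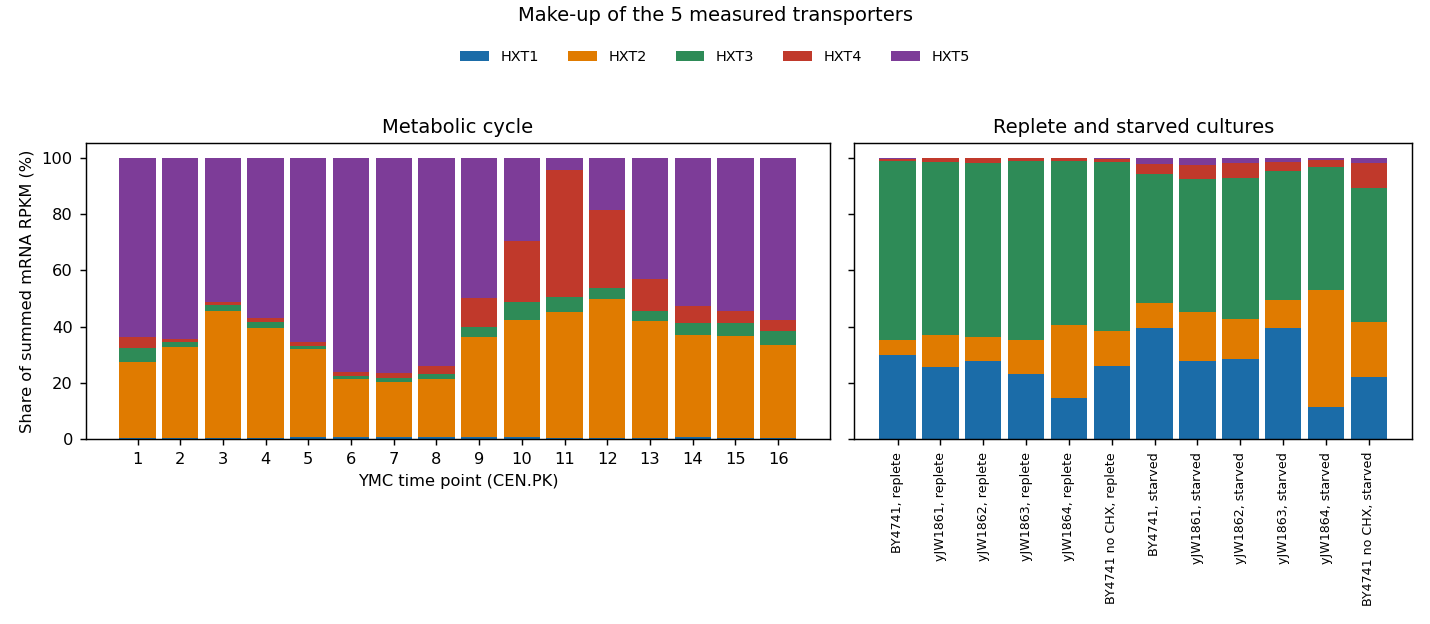
Share of HXT1 to HXT5 in their summed mRNA RPKM, in percent, at the 16 YMC time points (left) and in the 12 batch samples (right), each bar being 1 sample. HXT5 and HXT2 fill most of the bars in the cycle except at time point 11, where HXT4 reaches 44.9%, and HXT3 and HXT1 fill most of them in the batch cultures.

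In footprints HXT1, HXT2 and HXT3 fell as well. HXT3 went from 231, 369.7, 382 and 438 RPKM to 38.2, 91.9, 89.9 and 63.5 RPKM in the order of strains above, a log2 change of -2.66. HXT1 went from 172, 207, 186 and 234 RPKM to 25.7, 34.3, 40.9 and 72.4 RPKM, a log2 change of -2.59. HXT2 fell by 1.1 and RGT2 rose by 1.07 on the log2 scale. These 4 members passed edgeR's test, with 75.9% of all genes called, while SNF3 did not (0.30, adjusted p = 0.25). SNF3 footprints were 1.32 RPKM in replete BY4741 and 2.24 to 2.33 RPKM in the other replete strains.

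HXT4 and HXT5 had more footprints after starvation in each of the 4 strains. HXT4 footprints were 5.87 to 10.6 RPKM when replete and 13.2 to 26.6 RPKM when starved, and HXT5 footprints were 0.485 to 0.695 and 2.35 to 4.39 RPKM, or 15 to 25 and 48 to 70 counts. Neither pair of groups overlapped. With no filter, where edgeR called 73.7% of 5526 genes in footprints, the log2 changes were 0.95 (SE 0.15, adjusted p = 0.00019) and 2.26 (SE 0.26, adjusted p = 1.5e-05).

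In TE, HXT1 had the largest change of the 5 members tested. With CHX, the TE of HXT1 was 1.25, 1.78, 1.47 and 1.94 in replete BY4741, yJW1861, yJW1862 and yJW1863, and 0.429, 0.679, 0.836 and 1.14 after starvation. The groups did not overlap, and the change was -1.23 on the log2 scale (SE 0.19, edgeR adjusted p = 0.00034). HXT3 had a TE of 0.787, 1.32, 1.36 and 1.33 when replete and 0.547, 1.07, 1.04 and 0.861 when starved, lower in each strain, with overlapping groups. Its change of -0.57 (SE 0.19, edgeR adjusted p = 0.028) lost its call in 5 of 9 alternatives, over which the adjusted p ran from 0.021 to 0.11. It did so without the strain as a block (adjusted p = 0.074), without BY4741 (0.055), without yJW1862 (0.068) and without yJW1863 (0.11). The fit without BY4741 is the same as that with only the reporter strains, and both names are in the count.

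HXT2, SNF3 and RGT2 did not pass the test in TE, so 2 of 5 members were called, against 40.9% of all genes. The TE of RGT2 stayed near the bottom of all genes, at 0.106 to 0.165 when replete and 0.154 to 0.226 when starved, and SNF3 was at 0.284 to 0.409 and 0.289 to 0.461. HXT2 was near the top, at 1.48 to 1.95 and 1.51 to 2.33. HXT4 had a TE of 1.07 to 1.88 when replete and 2.64 to 3.05 when starved, which passed with no filter (0.87, SE 0.21, edgeR adjusted p = 0.0067, with 39.6% of 5573 genes called), and HXT5 did not (0.84, adjusted p = 0.051).

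**Figure D5:**
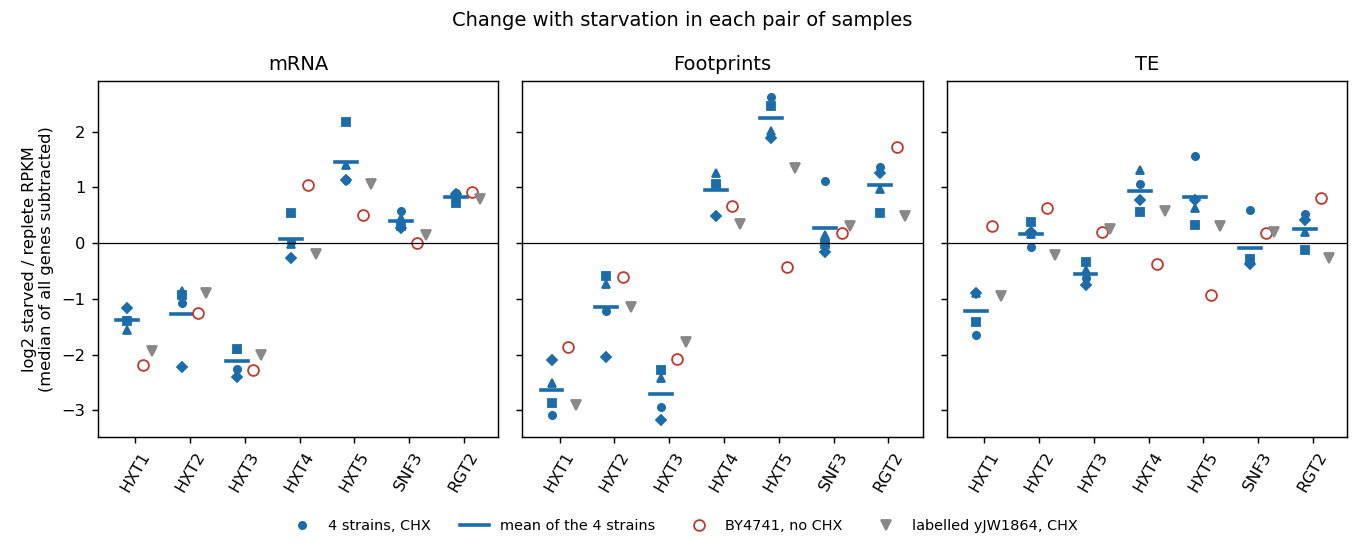
log2 ratio of starved to replete RPKM (mRNA, footprints) or TE with the median of all genes subtracted, for each measured gene; blue markers are the 4 strains with intact repressors with CHX and the bar is their mean, the open red circle is the BY4741 pair without CHX and the grey triangle the pair labelled yJW1864. The TE of HXT1 falls in the 4 blue pairs (-0.89 to -1.64) and stands at 0.31 without CHX.

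Without CHX, HXT1 mRNA fell further with starvation than it did with CHX. BY4741 harvested without CHX had 114 RPKM of HXT1 mRNA when replete and 30.6 RPKM when starved, so that the starved level lay below all 4 starved samples with CHX (49.0 to 63.5). Its footprints went from 188 to 73.9 RPKM and its TE from 1.64 to 2.41. The TE was thus higher after starvation in this pair and lower in each of the 4 pairs with CHX.

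Against the 4 pairs with CHX, the mRNA response of HXT1 differed by -0.81 on the log2 scale (SE 0.15, edgeR adjusted p = 0.013). It was the only member called of 5 tested, where 5.73% of 5042 genes were called. The pair without CHX is a single pair and was assumed to vary like the others. The TE response of HXT1 differed by 1.54 (SE 0.41) but did not pass edgeR's test (adjusted p = 0.08, unadjusted p = 0.0028). It passed in DESeq2 (adjusted p = 0.023) and without yJW1863 (0.02), and its adjusted p ran from 0.02 to 0.2 over 7 alternatives. In TE, edgeR called 0 of 5 members, 1 had an unadjusted p under 0.05, and DESeq2 called 1, with 2.56% of all genes called by edgeR. In footprints edgeR and DESeq2 both called 0 of 5 members and 0 had an unadjusted p under 0.05, with 0.516% of all genes called.

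The other members responded as follows without CHX. HXT3 mRNA went from 265 to 65.9 RPKM and RGT2 mRNA from 13.1 to 29.7 RPKM, log2 changes of -2.28 and 0.91. Both lie within or next to the range of the pairs with CHX. HXT2 mRNA went from 54.15 to 27.6 RPKM, a log2 change of -1.25 that lies inside its range with CHX. The TE of RGT2 went from 0.146 to 0.305 (26 and 169 footprints) and that of HXT2 from 1.225 to 2.26. Less the median of all genes, these log2 changes were 0.82 and 0.64, against -0.13 to 0.53 and -0.07 to 0.38 with CHX. The differences (0.61, SE 0.45, and 0.49, SE 0.75) did not pass edgeR's test. SNF3 mRNA went from 6.31 to 7.69 RPKM, a log2 change of 0.01 less the median of all genes, against 0.27 to 0.58 in the pairs with CHX, and the difference (-0.39, SE 0.18, edgeR adjusted p = 0.24) did not pass. HXT3 TE went from 1.07 to 1.46, whereas it was lower after starvation in the 4 pairs with CHX, but the difference in log2 change (0.79, SE 0.43, edgeR adjusted p = 0.44) did not pass. HXT4 mRNA went from 80 to 213 counts (5.08 to 12.8 RPKM), above the 4.97 to 9.45 RPKM of the starved samples with CHX. With no filter its mRNA response differed by 0.98 (SE 0.31, edgeR adjusted p = 0.11). HXT4 TE went from 1.66 to 1.52 in this pair (46 and 144 footprints), whereas it was higher after starvation in the 4 pairs with CHX. HXT5 TE went from 0.837 to 0.521, also against a rise with CHX, but HXT5 had only 11 and 16 footprints in this pair. With no filter, the TE responses of HXT4 and HXT5 differed by -1.25 (SE 0.52) and -1.76 (SE 0.84) without passing edgeR's test.

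Set directly against each other, the BY4741 samples with and without CHX differed more than 2-fold in HXT2 mRNA in both media and in HXT4 mRNA when starved. HXT2 mRNA was lower with CHX in both media, 24.1 against 54.1 RPKM when replete and 13.0 against 27.6 RPKM when starved. The log2 ratios of CHX to no CHX, less the median of all genes (0.29 and 0.23), were -1.46 (-1.60 to -1.32) and -1.32 (-1.50 to -1.13). The other strains harvested with CHX had up to 62.9 and 31.3 RPKM, so both samples without CHX lay within the spread of strains harvested with it.

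In starved cells the ratio was -1.59 (-1.96 to -1.22) for HXT4, with 82 against 213 counts, and 0.74 (0.59 to 0.90) for HXT1. Of the 5 members that met the count minimums, HXT2 alone differed more than 2-fold, in starved cells (2.74% of 4826 genes) and in replete cells (4.68% of 4702 genes). HXT4, also past 2-fold in starved cells, was below the minimum. HXT3 differed little, at -0.15 (-0.28 to -0.01) when starved. RGT2 mRNA was 13.1 RPKM without CHX in replete cells, below the 19.6 to 23.4 RPKM of the 4 samples with it, and the log2 ratio was 0.37 (0.21 to 0.52). SNF3 mRNA in replete BY4741 was 4.65 RPKM with CHX and 6.31 without, a log2 ratio of -0.73 (-0.98 to -0.49). When starved its ratio was -0.19 (-0.40 to 0.01). HXT4 in replete cells stood at -0.53 (-0.99 to -0.07), with 73 against 80 counts.

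In TE the log2 ratio of CHX to no CHX in starved cells, less the median of all genes (-0.94), was -1.55 (-1.83 to -1.27) for HXT1, 1.95 (1.44 to 2.46) for HXT4 and 2.12 (1.19 to 3.05) for HXT5, the last with 48 and 16 footprints. Of the 5 members that met the count minimums, as the genes of the background did, HXT1 alone was past 2-fold, against 14.0% of all genes, and HXT4 and HXT5 were below the minimum. HXT2 was past 2-fold in replete cells (1.07, 0.88 to 1.27), against 15.5% of all genes, but stood at 0.27 with no subtraction of the median (-0.80). For SNF3 and RGT2 the ratios were 0.97 (0.47 to 1.47) and 0.04 (-0.31 to 0.38) in starved cells, or 0.02 and -0.90 with no subtraction. In footprints 0 of these 5 members were past 2-fold in starved cells, against 10.8% of all genes, and 0 in replete cells, against 7.66%. HXT5, below the minimum, stood at 2.35 (1.53 to 3.16) in starved cells. How the cells were collected also differed, by centrifugation with CHX and by filtration without it. The paper's methods describe no solvent added to the filtered samples. In the paper, the rise of NOP2 mRNA with CHX in starved cells depended on the solvent used. CHX, its solvent and the way of collecting cannot be told apart in these samples.

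The samples labelled yJW1864, in which DOT6 and TOD6 but not STB3 lacked reads, differed in the level of HXT2. HXT2 mRNA was 147 RPKM when replete and 89.9 RPKM when starved, above all 5 other replete and all 5 other starved batch samples, and HXT2 footprints were 247 and 126 RPKM. HXT2 made up 25.9% and 41.4% of the summed mRNA of the 5 transporters in these samples, against 5.2% to 12.1% and 8.6% to 17.3% in the 4 strains. HXT1 mRNA was 83.2 and 24.9 RPKM, below the 4 strains in both media, and HXT3 was 331 and 94.9 RPKM, just above them. With 1 sample per medium, these levels have no replicate. These cells also expressed URA3, which the 4 strains did not, and uracil was in the replete medium only. What this does to the comparison with the 4 strains was not tested.

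The starvation response of HXT1 mRNA differed by -0.56 from that of the 4 strains (SE 0.16, edgeR adjusted p = 0.041), the only call among 5 members, where 17.1% of 5058 genes were called. In footprints edgeR called 0 of 5 members, with 1 at an unadjusted p under 0.05 (HXT3, 0.92, adjusted p = 0.096) and 0 in DESeq2, against 12.9% of all genes. In TE both tools called 0 of 5 and 0 had an unadjusted p under 0.05, against 2.97% of all genes. HXT2 responded by -0.90 in the mRNA ratio, inside the range of the 4 strains.

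The genes around the transporters moved in both directions. Of the sensor pathway (MTH1, STD1, RGT1, YCK1, YCK2, GRR1, SKP1, CDC53, TUP1 and CYC8), 3 of 10 rose and 4 fell in mRNA. The transcriptional repressor gene RGT1 (0.57, SE 0.062), GRR1, which encodes the F-box protein for Mth1 and Std1 (0.29, SE 0.054), and the casein kinase gene YCK2 (0.13, SE 0.049) rose. TUP1, a corepressor (-0.51, SE 0.051), YCK1 (-0.29, SE 0.051) and CDC53, a cullin (-0.29, SE 0.046), fell. The median log2 change of the list was 0.04, against 0.03 for all genes. In TE 0 rose and 1 fell, against 40.9% of all genes called.

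The Snf1-Mig1 pathway, part of the control of genes by glucose, had 4 of 15 members higher and 5 lower. SIP2, a subunit of the Snf1 kinase, rose by 0.76 (SE 0.06), MIG1 by 0.42 (SE 0.064) and MIG2 by 0.25 (SE 0.066), while the repressor gene NRG2 (-1.01, SE 0.13), the kinase subunit gene SNF4 (-0.27, SE 0.055) and MIG3 (-0.25, SE 0.072) fell. All 4 hexose kinase genes were called in mRNA. HXK2, the main hexokinase of cells in glucose (-2.58, SE 0.069), and HXK1 (-1.16, SE 0.084) fell, and the glucokinase gene GLK1 (0.82, SE 0.056) and its paralog EMI2 (0.47, SE 0.067) rose.

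Of 14 genes of the cAMP-PKA pathway, which also signals glucose, 13 were tested, and 8 rose and 3 fell. GPA2, the G protein of the glucose receptor Gpr1 (0.79, SE 0.067), the phosphodiesterase gene PDE1 (0.79, SE 0.071) and the kinase subunit gene TPK2 (0.75, SE 0.059) rose, and RAS1 (-1.72, SE 0.074), TPK3 (-0.79, SE 0.068) and BCY1, the regulatory subunit (-0.18, SE 0.048), fell. Of 6 genes for the ubiquitylation of transporters, 4 rose and 1 fell. They include the arrestin-related genes ROD1 (0.72, SE 0.05) and CSR2 (0.71, SE 0.074) and the adaptor gene BUL1 (0.52, SE 0.049), which rose, and BUL2 (-0.26, SE 0.052), which fell. The median log2 change was -0.07 in the Snf1-Mig1 list, -0.35 in the kinases, 0.55 in the cAMP-PKA list and 0.38 in the transporter turnover list. In TE, 6 rose and 2 fell in the Snf1-Mig1 list, 0 and 1 in the kinases, 1 and 2 in the cAMP-PKA list and 3 and 2 in the turnover list. All calls here are at an adjusted p under 0.05 in edgeR, where 80.2% of all genes were called.

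Of 10 other hexose transporter genes (HXT8 to HXT11, HXT13 to HXT17 and GAL2), 8 had an unmasked row and 0 had enough counts to be tested. Their mRNA counts were at most 36 in any batch sample, in HXT8. In the YMC they reached 687 counts in HXT8 and 670 in HXT10 and stayed at or under 10 in HXT9, HXT11, HXT13 and HXT17.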

How the data were processed

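Ribosome profiling and RNA-seq libraries of 28 biological samples, 56 in all, were used, and 0 columns of other samples. The authors removed rRNA and tRNA reads with Bowtie 1.1.2, aligned the rest with TopHat2 2.1.1 (sacCer3, per the labels' processing notes) and counted them on coding sequences with plastid, footprints at P-sites and RNA-seq reads at their 5′-most base. Positions that are not unique and the ends of each coding sequence were masked, with 108 bases left out at the ends in 44 libraries and 33 in the 12 reporter strain libraries, so RPKM between these sets come from slightly different positions. The deposited counts are not normalized, and the deposited RPKM values were normalized by the authors to length and total reads. Dissolved oxygen in percent is as the authors deposited it.

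TE and log2 ratios were computed from RPKM, and the median over genes with 128 mRNA counts and 1 footprint in both samples was subtracted. Counts of genes with means of 128 mRNA counts and 1 footprint were tested with edgeR 4.0.16 (R 4.3.3, TMM, quasi-likelihood, Benjamini-Hochberg over all genes, strain as a block), and TE as the interaction of starvation and library type. The 784 dubious ORFs were left out of tests. Each strain's replete and starved cells came from the same culture, which pairs them. The deviations of such a pair from the 2 group means had, over genes, an r of 0.798, 0.616, 0.649 and 0.564 in mRNA and 0.747, 0.481, 0.453 and 0.520 in footprints (BY4741, yJW1861, yJW1862, yJW1863). Pairs of different strains ran from -0.645 to 0.616 in mRNA and from -0.602 to 0.529 in footprints, the highest between yJW1861 and yJW1862. Paired samples also share a mask. Alternatives were RLE factors, DESeq2 1.42.0, fits with no filter or without the block, fits that left out 1 strain, and the reporter strains alone, and for unreplicated values other scalings, filters and extremes left out.

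Members and gene lists were chosen with earlier results of these data known. Named genes are the 9 members, the 3 genes most correlated with each member over the YMC, and in each list up to 3 called rises and 3 called falls with the largest log2 change that moved the same way in all 4 strains. Gene names and positions come from the files and RefSeq's R64 table. The molecular identifiers were removed by the authors, and whether reads with equal ones were collapsed is not given in the sources used here.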

Additional observations from a re-analysis of the deposited data

Results flagged for a closer look

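Sets of 4 values (the 4 strains with intact repressors, for levels and changes of the 7 measured genes) were searched for a strain far from the other 3. Of 63 sets, 4 held one, which is near the rate of about 1 in 20 that chance gives. The sets share samples and are not independent. The fall of HXT2 mRNA was -2.23 on the log2 scale in yJW1863 and -0.86 to -1.08 in the others. The replete TE of HXT3 was 0.787 in BY4741 and 1.32 to 1.36 in the others. Replete SNF3 footprints were 1.32 RPKM in BY4741 and 2.24 to 2.33 in the others, and the TE change of SNF3 was 0.60 in BY4741 and -0.28 to -0.38 in the others. In 3 of these 4 the strain apart is BY4741, the only one of the 4 counted with the longer ends of each coding sequence left out. The SNF3 sets among them share the replete footprints of BY4741. The part of the mask in this was not tested.

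The response of HXT1 mRNA to starvation differed by -0.81 between the BY4741 pair without CHX and the 4 pairs with it (adjusted p = 0.013 in edgeR), and by -0.56 between the pair labelled yJW1864 and the same 4 pairs (adjusted p = 0.041 in edgeR). Both calls held in all 7 alternatives run, with adjusted p from 0.0018 to 0.036 and from 0.019 to 0.047. Both comparisons share the 4 pairs, and each rests on a single pair.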

How the results depend on the processing

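In the 4 strains, 5 members were called in mRNA and 4 in footprints, and each kept its direction and call with RLE factors, DESeq2, no filter, no replicate block, only the reporter strains and each strain left out. In TE, 2 members were called, but 1 with no replicate block and 1 with only the 3 reporter strains, and 1 to 2 with a strain left out; the member lost was HXT3. Over all genes, 2071 were called in TE, against 934 with no replicate block, 1352 without yJW1863 and 1441 without yJW1862. For the TE response without CHX, 0 members were called, but 1 in DESeq2 (HXT1), and 0 to 1 with a strain left out; 129 of all genes were called, against 76 without yJW1862. For the TE response in yJW1864, 0 members were called in each alternative, and 150 of all genes, against 257 without BY4741 and 95 without yJW1862. The block changed no other call of a member in the starvation response of the 4 strains; the comparisons without CHX and of yJW1864 were fitted only with it.

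Of the ratios of CHX to no CHX, 2 members were past 2-fold in starved mRNA, and 1 where the minimum of mRNA counts was required, as HXT4 fell out. With no subtraction of the median, 5 of the mRNA and TE ratios whose counting interval did not include 0 changed sign: HXT1 TE in replete cells to -0.39, HXT2 TE in starved cells to -0.58, HXT3 mRNA to 0.15 (replete) and 0.08 (starved), and HXT3 TE in replete cells to -0.44. Ratios nearer 0 and footprint ratios can change sign as well. In the YMC, 6 members varied more than 2-fold in mRNA, and 5 when the highest and lowest sample of each were set aside, since SNF3 then varied 1.97-fold. Depth limits HXT5 in batch culture and HXT1 in the YMC, where footprints per sample were at most 70 and 111.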

Other observations

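In the YMC all 4 hexose kinase genes varied more than 4-fold in mRNA, as did 29.7% of all genes. HXK1 had 3079 RPKM at time point 3 and 34.4 at time point 10, an 89.6-fold range, GLK1 had 1099 at time point 3 and 39.8 at time point 11, and EMI2 had 118 at time point 2 and 7.44 at time point 11. HXK2 was highest at time point 16 (656 RPKM) and lowest at time point 10 (135). The lowest levels of all 4 thus fell in the oxidative samples 10 and 11, where HXT3 and HXT4 were highest. Time points 10 and 11 also held the lowest mRNA of 10.2% and 32.3% of all genes.

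MTH1 and STD1, which encode the corepressors that the sensors act on, are named here after their values were seen. MTH1 mRNA was highest at time point 4 (144 RPKM) and lowest at time point 10 (14.7 RPKM), a 9.80-fold range, and STD1 was highest at time point 10 (29.3 RPKM) and lowest at time point 12 (7.79 RPKM). Of the 10 genes of the sensor pathway list, MTH1 was the only one past 4-fold in mRNA.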
